A study of Mus musculus with 6 samples.

Results

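The miR-15/16 family was followed in the small extracellular vesicles (sEV) that mouse cochlear explants released with and without cisplatin. Its members were taken by name, as the guide arms mmu-miR-15a-5p, mmu-miR-15b-5p, mmu-miR-16-5p, mmu-miR-195a-5p and mmu-miR-497a-5p (the species prefix is left out from here), and all 5 were among the 810 miRNAs of the deposited table of read counts. A guide arm is the strand of a miRNA hairpin that is usually kept as the mature miRNA. The Cis-sEV group (n = 3) held sEV from explants given 50 µM cisplatin for 48 h, and the Ctrl-sEV group (n = 3) held sEV from explants given the same volume of PBS. The explants were sensory epithelium of ICR mice at postnatal day 3, cultured in serum that had been depleted of sEV, and the sEV of about 80 explants were pooled in each sample. A sample is therefore the mixed secretion of all cell types of many explants into the medium, and p-values measure the spread between such pools.

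miRNAs guide Argonaute proteins to messenger RNAs, chiefly by pairing of their seed, bases 2 to 8, with sites in the 3′ untranslated region (UTR), which lowers the output of the target. The miR-15/16 family is known for repressing Bcl2, the protein that keeps mitochondria from releasing cytochrome c, and several genes that drive the cell cycle, and loss of miR-15a and miR-16-1 is a common lesion of chronic lymphocytic leukaemia. Cisplatin cross-links DNA and kills hair cells of the cochlea by apoptosis, which is why miRNAs that act on Bcl2 have been of interest in this injury. Cell death was not measured in these libraries.

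The mature sequences are shown because all members can recognise the same sites while differing outside the seed. They were taken from RefSeq records on GRCm38.p6, matched for all 5 members, and were identical to the sequences in the deposited table. The capitals mark the seed, bases 2 to 8 counted from the 5′ end.
miR-15a-5p: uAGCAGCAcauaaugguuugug
miR-15b-5p: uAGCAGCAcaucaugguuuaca
miR-16-5p: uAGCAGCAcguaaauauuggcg
miR-195a-5p: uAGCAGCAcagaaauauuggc
miR-497a-5p: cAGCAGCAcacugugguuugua
miR-322-5p: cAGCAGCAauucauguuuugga
All members carried the seed AGCAGCA. A search of the table found 1 further miRNA with this seed, miR-322-5p, which is shown with the members for that reason. miR-16-5p and miR-195a-5p are the closest pair, with 19 of 21 compared bases identical, and differ by G10A and U11G, given as the base of miR-16-5p, the position and the base of miR-195a-5p. miR-15a-5p and miR-15b-5p share 18 of 22 bases, whereas miR-16-5p and miR-497a-5p share 11 of 22. Reads of the closest pair could thus be separated only by 2 central bases and the length of the read, and the 4297 reads assigned to miR-16-5p in the Ctrl-sEV group were accompanied by 0 reads of miR-195a-5p.

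The members are encoded by 3 pairs of neighbouring hairpins. Mir15a lies at chr14:61632027-61632110 and Mir16-1 at chr14:61631880-61631972, both on the minus strand, 54 bases apart, within an intron of the noncoding gene Dleu2. Mir15b at chr3:69009772-69009835 and Mir16-2 at chr3:69009902-69009996 lie on the plus strand, 66 bases apart, within an intron of Smc4, which encodes a condensin subunit. Mir497 at chr11:70234717-70234800 and Mir195a at chr11:70235042-70235135 lie on the plus strand, 241 bases apart, and no host gene was annotated over them. The coordinates are those of GRCm38 with GENCODE release M21. The same mature miR-16-5p is made from Mir16-1 and from Mir16-2, so its reads cannot be divided between these loci.

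The Cis-sEV libraries held 1722359 to 1794175 miRNA reads and the Ctrl-sEV libraries 528952 to 718597. Between 586 and 603 miRNAs had at least 1 read in a Cis-sEV library, against 258 to 311 in a Ctrl-sEV library. Levels are given as CPM, the reads scaled to a common library size, after scaling by the trimmed mean of M values (TMM), a factor for differences in composition, and the level of 3 reads, the upper limit that a count of 0 allows, was 1.42 to 1.59 CPM for Cis-sEV libraries and 4.20 to 7.31 CPM for Ctrl-sEV libraries. These limits and the intervals of single shares cover counting error only, since copies made by PCR were not told apart. The spread between Ctrl-sEV libraries was the larger, with a biological coefficient of variation of 1.55 against 0.369 in the Cis-sEV group, estimated by edgeR. The miR-183 family, which marks hair cells, summed to 50138 to 73508 CPM in the Cis-sEV and 56046 to 73319 CPM in the Ctrl-sEV libraries. Of its members, miR-96-5p was called higher in the Cis-sEV group (12577 ± 7933 against 2979 ± 820 CPM, SD, n = 3 each) and miR-183-5p was lower in each Cis-sEV library but under the limit on the fold change (log2 fold change -0.49, adjusted p = 0.0419 in edgeR).

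All 5 members were detected in every Cis-sEV library, but only miR-15a-5p, miR-15b-5p and miR-16-5p had reads in the Ctrl-sEV group. The family made up 0.362%, 0.344% and 0.459% of the miRNA reads in the Cis-sEV group (0.388% ± 0.0618, SD, n = 3) and 0.132%, 0.337% and 0.240% in the Ctrl-sEV libraries (0.236% ± 0.103, SD, n = 3). The lowest Cis-sEV share, 0.344%, was just above the highest Ctrl-sEV share, 0.337%, and their 95% Wilson intervals, 0.335% to 0.353% and 0.324% to 0.351%, overlapped. Summed as CPM scaled by TMM, the family itself overlapped, at 3138 to 3892 in the Cis-sEV and 1731 to 3388 in the Ctrl-sEV libraries. miR-16-5p accounted for 89.8% to 91.0% of the family's reads in the Cis-sEV group and 92.1% to 99.8% in the Ctrl-sEV group. In the Cis-sEV libraries the order was the same at its ends, with miR-16-5p first and miR-195a-5p and then miR-497a-5p last, while miR-15a-5p and miR-15b-5p lay within their spread of each other.

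Differences between the groups were tested with the quasi-likelihood test of edgeR on all miRNAs that passed its filter on low counts, with Benjamini-Hochberg adjustment over these 353. To be called, a miRNA needed an adjusted p no larger than 0.05 and a log2 fold change of 1 or more in either direction. All 5 members passed the filter, miR-195a-5p and miR-497a-5p through their Cis-sEV reads alone. miR-195a-5p and miR-497a-5p were called higher in the Cis-sEV group (2 of 5 members), against 23.5% of the miRNAs tested. This count says nothing of the family, because all 53 tested miRNAs with 0 Ctrl-sEV reads were called higher. In all, 0 of 5 were called lower, against 6.52%. At an unadjusted p under 0.05 edgeR had 3 of 5 members higher, against 31.2% of the miRNAs tested, and 0 lower, against 10.5%. DESeq2, limma-voom and an MA-plot test each called 0 members lower, against 4.74%, 3.68% and 15.9% of their miRNAs. Every Cis-sEV library lay above every Ctrl-sEV library for miR-15b-5p, miR-195a-5p and miR-497a-5p (3 of 5), against 37.7% of the miRNAs tested. Both counts of 3 members include miR-195a-5p and miR-497a-5p, so they too say nothing of the family. With 0 Ctrl-sEV reads, miR-195a-5p and miR-497a-5p could not be called lower. Each count of 0 members lower thus rests on miR-15a-5p, miR-15b-5p and miR-16-5p alone and says nothing of the family either.

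The called members belong to a large set. Of the tested miRNAs, 53 (15%) lacked reads in the whole Ctrl-sEV group, and all 53 were called higher. Of the other 300, with reads in the Ctrl-sEV group, 30 (10%) were called higher, and no member was among these. The median log2 fold change of the 5 members was 3.45 beside 0.44 for all miRNAs tested. With miRNAs that had 0 Ctrl-sEV reads set to their lower bound, these medians were 2.86 and 0.44. Both medians of the members rest on miR-195a-5p and miR-497a-5p, which entered through their Cis-sEV reads alone, and say nothing of the family. Because the median of all miRNAs tested moved with the scaling, from 0.22 with upper quartile factors to 0.79 with total reads, the changes of miR-16-5p and miR-322-5p, which are near it, are given relative to it as well.

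**Figure D1:**
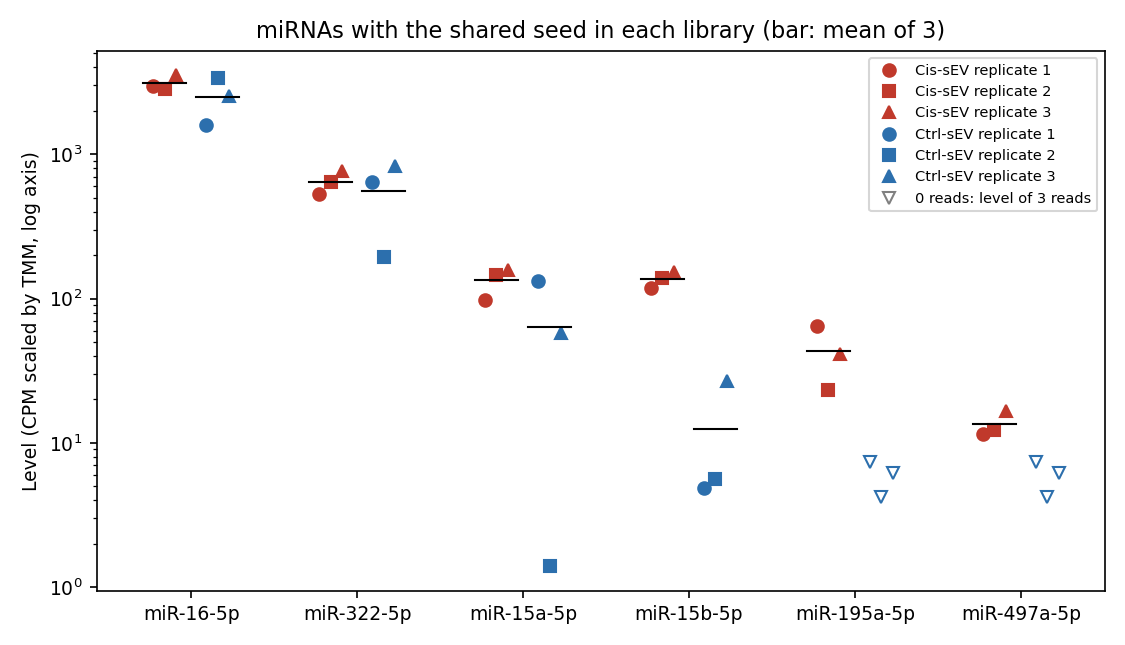
Level of the 5 members and of miR-322-5p in each of the 6 libraries, as CPM scaled by TMM on a log axis, with red symbols for Cis-sEV, blue for Ctrl-sEV and a black bar at each group mean. Open triangles stand for 0 reads and are drawn at the level of 3 reads; miR-16-5p overlaps between the groups, and miR-195a-5p and miR-497a-5p have only open triangles in Ctrl-sEV.

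miR-16-5p, the most abundant member, did not differ between the groups beyond the spread of the replicates. In the Cis-sEV group 5898, 5316 and 7451 reads were counted, and in the Ctrl-sEV group 654, 2417 and 1226, or 2969, 2818 and 3525 CPM against 1594, 3381 and 2535 CPM. The second Ctrl-sEV library lay above 2 of the 3 Cis-sEV libraries. The group means were 3104 ± 372 and 2503 ± 894 CPM (SD, n = 3 each), and the log2 fold change was 0.31 with an SE of 0.28 and an adjusted p of 0.525 in edgeR. The 95% interval of this change ran from -0.36 to 0.98, and the change lay 0.13 below the median of all miRNAs tested. miR-16-5p was the member with the narrowest interval.

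miR-15a-5p, which shares its transcript with miR-16-1, was even among the Cis-sEV libraries and scattered among the Ctrl-sEV libraries. It had 194, 275 and 332 reads in the Cis-sEV group, or 97.6, 146 and 157 CPM. In the Ctrl-sEV group it had 54, 1 and 28 reads, or 132, 1.40 and 57.9 CPM. The first Ctrl-sEV library lay inside the Cis-sEV range and the second was at a single read, so the groups overlapped. The means were 133 ± 31.5 and 63.6 ± 65.3 CPM, and the log2 fold change of 1.07 had an SE of 1.42 and an adjusted p of 0.687 in edgeR. Its 95% interval, -2.29 to 4.43, holds both a fall and a large rise, and the difference was not detectable at this depth and spread.

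miR-15b-5p, from the pair in Smc4, did not overlap between the groups, all Cis-sEV values being above all Ctrl-sEV values, but was not called. It had 234, 263 and 322 reads in the Cis-sEV group and 2, 4 and 13 in the Ctrl-sEV group. These are 118, 139 and 152 CPM against 4.88, 5.60 and 26.9 CPM, with the third Ctrl-sEV library highest of its group. The means were 137 ± 17.5 and 12.5 ± 12.5 CPM, and the log2 fold change was 3.45 (SE 1.26, 95% interval 0.45 to 6.44) with an adjusted p of 0.0775 in edgeR. Among 74 other miRNAs whose mean Cis-sEV level was within 2-fold of that of miR-15b-5p, 12 had as few reads as its 19 or fewer over the Ctrl-sEV group, and the median was 161.5 reads.

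The call of miR-15b-5p depended on the test and on 1 library. DESeq2 called it (adjusted p = 0.00693), where 16.9% of the miRNAs with an adjusted p were called higher, and limma-voom called it (adjusted p = 0.0362), where 8.5% were. Without the third Ctrl-sEV library, edgeR gave a log2 fold change of 4.76 and an adjusted p of 0.0114; over the 6 libraries left out in turn, the log2 fold change ran from 2.98 to 4.76 and the adjusted p from 0.0114 to 0.359.

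miR-195a-5p, from the pair on chromosome 11, was found in the Cis-sEV group only. It had 129, 44 and 87 reads there, or 64.9, 23.3 and 41.2 CPM (43.1 ± 20.9, SD, n = 3), and 0 reads in each Ctrl-sEV library. The lowest Cis-sEV value stood above the highest Ctrl-sEV limit of 7.31 CPM. With 3 reads over the Ctrl-sEV group in place of 0, it was at least 23.3-fold higher in the Cis-sEV group. This bound fell to 12.9-fold without the second Ctrl-sEV library, the deepest of its group. Both bounds cover counting error only, not the wider spread between Ctrl-sEV libraries, where miR-15a-5p had 54, 1 and 28 reads. The adjusted p of 0.0128 for miR-195a-5p in edgeR is no separate support, since all 53 tested miRNAs with 0 Ctrl-sEV reads were called. Of 103 other miRNAs within 2-fold of its Cis-sEV level, 28 (27.2%) also had 0 reads in the Ctrl-sEV group.

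miR-497a-5p, encoded next to miR-195a-5p, was the least abundant member. Its Cis-sEV reads numbered 23, 23 and 35, or 11.6, 12.2 and 16.6 CPM (13.4 ± 2.72, SD, n = 3), and 0 reads in each Ctrl-sEV library. It was at least 7.25-fold higher in the Cis-sEV group, and the bound was 4.03-fold without the second Ctrl-sEV library. These bounds too cover counting error only. Its adjusted p of 0.00502 in edgeR is likewise no separate support, because miR-497a-5p too had 0 Ctrl-sEV reads. limma-voom did not call it (adjusted p = 0.0990). Of 132 other miRNAs within 2-fold of its Cis-sEV level, 59 (44.7%) had 0 reads in the Ctrl-sEV group. The Cis-sEV libraries were deeper, and the part of this difference in depth in the absence of Ctrl-sEV reads was not tested.

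**Figure D2:**
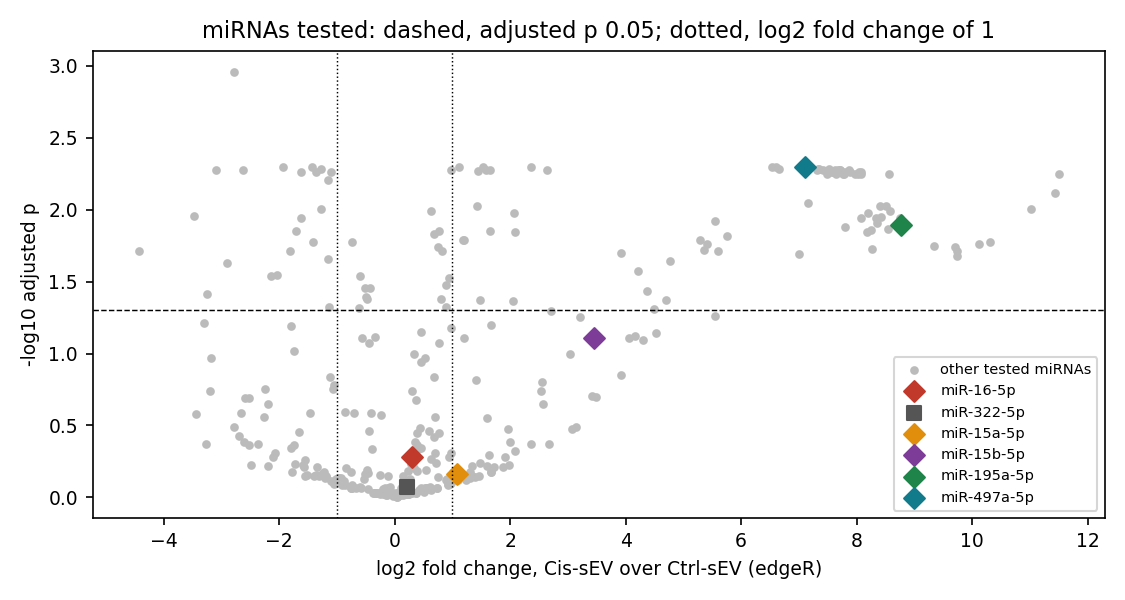
Each point is 1 of the 353 miRNAs tested, with the log2 fold change of Cis-sEV over Ctrl-sEV fitted by edgeR on the horizontal axis and the -log10 of the adjusted p on the vertical axis; members are diamonds and miR-322-5p is a square. miR-195a-5p and miR-497a-5p lie in the dense group at the upper right, where the fitted change of miRNAs with 0 Ctrl-sEV reads depends on a prior count and is no measured size, and miR-15b-5p lies below the dashed line.

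The make-up of the family was then compared within each library, where the scaling of the library cancels. The other 4 members together made up 8.95%, 10.2% and 9.43% of the family's reads in the Cis-sEV libraries (9.53% ± 0.638, SD, n = 3). In the Ctrl-sEV group they made up 7.89%, 0.206% and 3.24% (3.78% ± 3.87, SD, n = 3). All Cis-sEV values lay above all Ctrl-sEV values, though the first Ctrl-sEV library, with its 54 reads of miR-15a-5p, was close to the Cis-sEV group. That order rests on miR-195a-5p and miR-497a-5p, which entered through their Cis-sEV reads alone, and says nothing of the family. In the first Cis-sEV library miR-15a-5p and miR-15b-5p made up 2.99% and 3.61%, against 7.61% and 0.28% in the first Ctrl-sEV library.

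Relative to miR-16-5p, miR-15b-5p had a higher ratio in each Cis-sEV library than in any Ctrl-sEV library. By level, 37.7% of the miRNAs tested had every Cis-sEV library above every Ctrl-sEV library, and no such share was computed for ratios. For each 1000 reads of miR-16-5p there were 39.7, 49.5 and 43.2 reads of miR-15b-5p in the Cis-sEV group and 3.06, 1.65 and 10.6 in the Ctrl-sEV group, with no overlap. After 0.5 was added to both counts, the mean log2 ratio was -4.51 ± 0.16 in the Cis-sEV and -7.87 ± 1.29 in the Ctrl-sEV group (SD, n = 3 each), a difference of 3.36. The two-sided exact permutation test gave p = 0.1, the smallest value that 3 against 3 libraries allow, so no ratio could pass 0.05. With adjustment over the 5 ratios tested p was 0.125, and over the 4 that could be formed in both groups it was 0.133.

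miR-195a-5p made up 21.9, 8.28 and 11.7 reads per 1000 miR-16-5p reads in the Cis-sEV group. The Ctrl-sEV libraries had 0, with limits of 4.59, 1.24 and 2.45, so the groups stayed apart also at these limits (exact permutation p = 0.1). Since miR-195a-5p entered through its Cis-sEV reads alone, this ratio restates the absence of Ctrl-sEV reads and is no separate support. The log2 difference rests on the count added, at 5.01 with 0.5 and 1.78 with 5 added to both counts. For miR-497a-5p the Cis-sEV values were 3.90, 4.33 and 4.70, and the limit of 4.59 in the first Ctrl-sEV library exceeds 2 of them. That library, with 654 reads of miR-16-5p, could thus not show whether this ratio differed, and with 5 added to both counts the log2 difference of miR-497a-5p was 0.36 (exact permutation p = 0.7). The ratio of miR-497a-5p to miR-195a-5p cannot be formed in the Ctrl-sEV group, where both had 0 reads.

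miR-15a-5p did not follow miR-15b-5p. Per 1000 reads of miR-16-5p it had 32.9, 51.7 and 44.6 in the Cis-sEV group and 82.6, 0.414 and 22.8 in the Ctrl-sEV group, which spanned the Cis-sEV range (log2 difference 2.00, exact permutation p = 0.6, adjusted p = 0.6). Without the second Ctrl-sEV library this difference was -0.05. The ratio of miR-15b-5p to miR-15a-5p was 1.21, 0.956 and 0.970 in the Cis-sEV group against 0.0370, 4 and 0.464 in the Ctrl-sEV group. The pair was therefore near parity in all 3 Cis-sEV libraries and on both sides of parity in the Ctrl-sEV libraries, where its counts were between 1 and 54 reads.

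**Figure D3:**
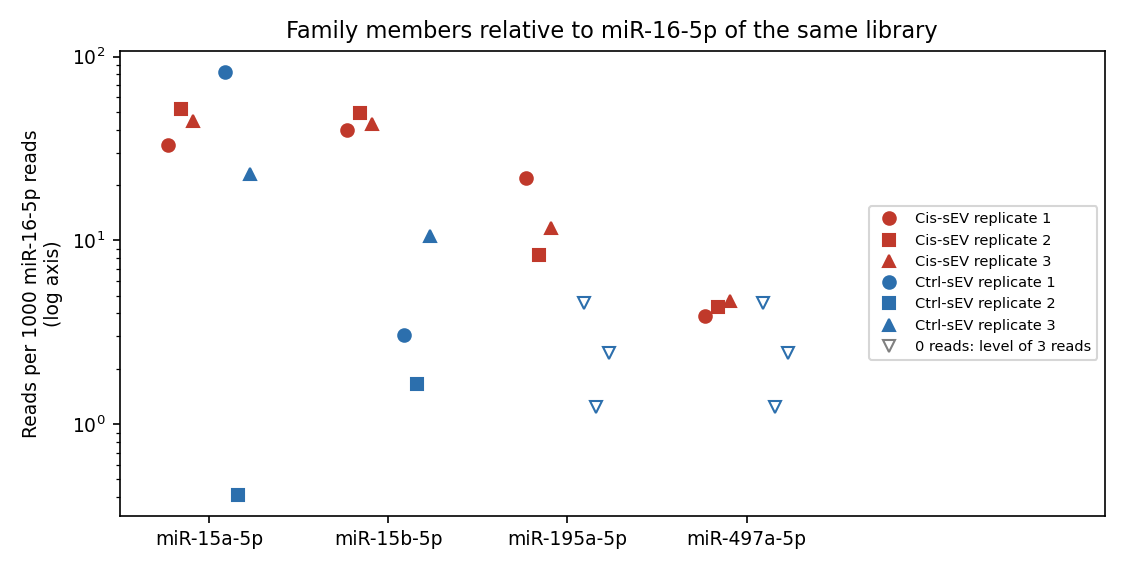
Reads of 4 members per 1000 reads of miR-16-5p in the same library, on a log axis, with red symbols for Cis-sEV and blue for Ctrl-sEV. Open triangles stand for 0 reads, drawn at the ratio of 3 reads; miR-15b-5p stands at 39.7 to 49.5 in the red symbols and 1.65 to 10.6 in the blue, and the triangles of miR-497a-5p reach into its Cis-sEV range.

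The passenger arms, the strands of the same hairpins that are usually degraded, were nearly absent. Of 6 such arms, miR-15b-3p, miR-16-2-3p and miR-195a-3p had a row in the table, and none passed the filter of edgeR. Without that filter and in DESeq2, 0 of these 3 were called and 0 had an unadjusted p under 0.05. miR-15b-3p had 10, 5 and 29 reads in the Cis-sEV group against 1, 0 and 0, a ratio of 11.8 (95% counting interval 2.01 to 477). miR-16-2-3p had 6, 0 and 0 reads and miR-195a-3p had 12, 0 and 0 in the Cis-sEV group, each with 0 in the Ctrl-sEV group. The 6 reads of miR-16-2-3p are the only ones that point to 1 of the 2 miR-16 loci.

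miR-322-5p, the mouse counterpart of human miR-424-5p, has the seed of the family and comes from a cluster on the X chromosome. Its reads numbered 1047, 1220 and 1615 in the Cis-sEV group and 263, 139 and 401 in the Ctrl-sEV group, or 527, 647 and 764 CPM against 641, 194 and 829 CPM. The third Ctrl-sEV library was the highest of the 6, and the groups overlapped (log2 fold change 0.22, SE 0.54, adjusted p = 0.841 in edgeR), with the change 0.22 below the median of all miRNAs tested. By level it stood second to miR-16-5p among miRNAs with this seed, and these 2, the most abundant, were those with the smallest fitted changes.

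A list of 10 relatives was made of miR-322-5p, the other arm of its hairpin, a neighbouring hairpin and miRNAs of like name or seed. It had 4 rows in the table, of which 3 were tested. Against 23.5% of all miRNAs tested, 1 of these 3 was called higher. This was miR-322-3p, the other arm of the miR-322 hairpin, with 201, 85 and 96 Cis-sEV reads and 0 in each Ctrl-sEV library (at least 34.2-fold higher, or 19.0-fold without the second Ctrl-sEV library; adjusted p = 0.0178 in edgeR). miR-322-3p belongs to the 53 tested miRNAs with 0 Ctrl-sEV reads, all of which were called, so its call is no separate support. Per 1000 reads of miR-322-5p this arm had 192, 69.7 and 59.4 in the Cis-sEV group and 0 in the Ctrl-sEV group. miR-503-3p, from the hairpin 200 bases from Mir322, had 137, 176 and 125 Cis-sEV reads against 0, 57 and 0, all its Ctrl-sEV reads being in 1 library, and was not called (adjusted p = 0.704). miR-497b had 0, 0 and 9 Cis-sEV reads and 0 in the Ctrl-sEV group.

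**Figure D4:**
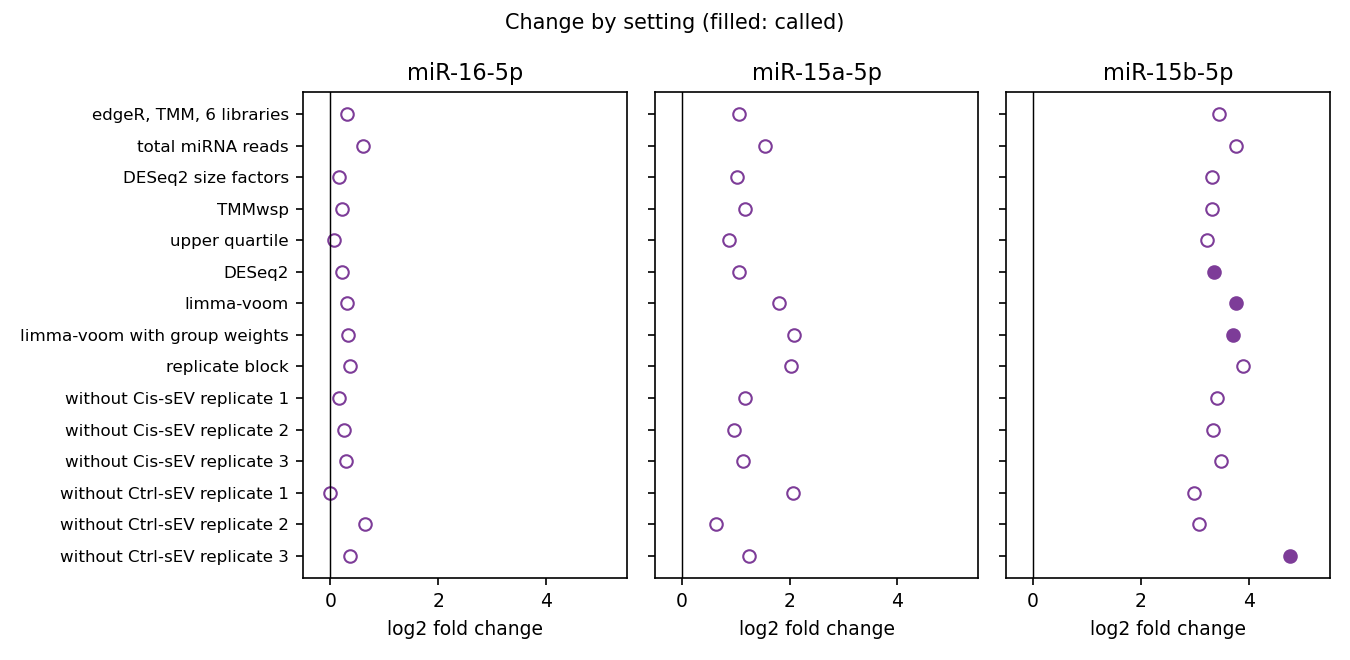
Log2 fold change of miR-16-5p, miR-15a-5p and miR-15b-5p, Cis-sEV over Ctrl-sEV, under the scalings, tests and left-out libraries named on the vertical axis, with filled circles where the miRNA was called. miR-15b-5p stays between 2.98 and 4.76 and is called under 4 of the 15 settings shown, and the other two under none.

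Other miRNAs known to repress Bcl2 did not move in 1 direction. Of 13 on a list of the miR-34, miR-181, miR-204 and miR-200 families, 12 had a row and 11 were tested. Of these 11, edgeR called 4 higher and 2 lower, against 23.5% and 6.52% of all miRNAs tested. Their median log2 fold change was 0.28 beside 0.44 for all miRNAs tested. miR-34a-5p, a target of p53, rose from 1803 ± 624 to 9246 ± 820 CPM (SD, n = 3 each; log2 fold change 2.36, SE 0.29, adjusted p = 0.00502 in edgeR). miR-181c-5p, miR-181d-5p and miR-200b-3p were the others called higher, with log2 fold changes of 1.58, 1.19 and 1.65. miR-204-5p, the most abundant of the list, fell from 220895 ± 60226 to 58160 ± 3752 CPM (log2 fold change -1.93, SE 0.23, adjusted p = 0.00502 in edgeR), and miR-181b-5p had a log2 fold change of -1.36. By level, miR-204-5p and miR-34a-5p both exceeded miR-16-5p in the Cis-sEV group. DESeq2 called 2 miRNAs of this list, where 16.9% of the miRNAs with an adjusted p were called higher and 4.74% lower.

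miR-16 is also abundant in red blood cells, and markers of cells other than the sensory epithelium were set beside it. Of 5 erythrocyte miRNAs, 4 had a row and 3 were tested, and their summed level was 983 to 1221 CPM in the Cis-sEV against 1793 to 3935 CPM in the Ctrl-sEV libraries. Of these, miR-451a fell from 2355 ± 773 to 1062 ± 126 CPM (SD, n = 3 each; adjusted p = 0.0219 in edgeR) and miR-486a-5p from 559 ± 354 to 50.5 ± 9.79 CPM (adjusted p = 0.0111), while miR-486b-5p was not called (204 ± 67.1 against 20.5 ± 14.1 CPM in Cis-sEV, adjusted p = 0.0618), miR-144-5p had no row and miR-144-3p had 2 reads in the Cis-sEV and 0 in the Ctrl-sEV group. miR-122-5p, a miRNA of liver and serum, fell from 7423 ± 1318 to 1077 ± 167 CPM (adjusted p = 0.00110 in edgeR). The part of red blood cells and serum in the levels of the 5 members was not tested.

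Other marker sums were 5466 to 8965 CPM in the Cis-sEV and 3034 to 5804 CPM in the Ctrl-sEV libraries for 5 mesenchymal miRNAs. All 5 were tested and none was called by edgeR, against 23.5% called higher and 6.52% lower of all tested. Of these, miR-143-3p had an adjusted p of 0.0141 in edgeR at a log2 fold change of 0.77. The sums were 6235 to 8442 against 15962 to 20945 CPM for the 2 arms of the endothelial miR-126a, carried by miR-126a-3p, which was called lower. miR-126a-5p had 94, 51 and 84 Cis-sEV reads against 0, 0 and 3, the opposite order, and was not called (adjusted p = 0.0759 in edgeR). The 3 neuronal miRNAs summed to 1697 to 1988 against 1236 to 1524 CPM, with miR-124-3p called higher and at 0 reads in the Ctrl-sEV group. Of 4 immune miRNAs, 2 had a row, with 231 to 331 against 267 to 580 CPM, and both arms of miR-142a, the defining leukocyte miRNA, had no row. In sEV of a mixed tissue, fewer cells of a type, fewer sEV from them and less miRNA in each sEV cannot be told apart.

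The miRNAs whose profile over the 6 libraries was nearest to that of miR-16-5p were miR-30b-5p, miR-532-5p, miR-351-5p, miR-187-3p and miR-151-5p. Their Euclidean distances on the centred log2 scale were 0.602, 0.679, 0.709, 0.778 and 0.800, among 316 candidates outside the lists. All 5 had a positive log2 fold change of 0.03 to 0.80, of which that of miR-151-5p reached an adjusted p of 0.0419 in edgeR without reaching the limit on the fold change. The distance includes the difference between the groups, so changes near that of miR-16-5p follow from how the 5 were picked. These profiles share the depth and the scaling of the libraries, and the likeness is a description over 6 points.

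Sites that the shared seed could pair with were located in 11 genes of cell survival and the cell cycle chosen as known targets. The complement of the seed, TGCTGCT, was searched on the transcript strand of the longest annotated 3′ UTR of each gene, overlapping matches included, and all 11 had at least 1 match, beside 20.2% of 20956 genes. Since these genes were chosen as targets and many have long 3′ UTRs, this count is no test. The sites of Bcl2 and of 2 cell cycle genes are shown, with the match in capitals, because these are the sequences that any of the 5 members would read.
Bcl2: aaaccctgTGCTGCTatcctgcc
Ccne1: tttgtaagTGCTGCTatgtctat
Chek1: gaatagagTGCTGCTatgtgaca
The match in Bcl2, the inhibitor of apoptosis, lies at chr1:106540799-106540805 on the minus strand of GRCm38, in a 3′ UTR of 5086 bases, and 54.1% of genes with a 3′ UTR of 80% to 125% of that length also had one. That in Ccne1, which encodes cyclin E1 of the G1/S transition, lies at chr7:38098024-38098030 on the minus strand in a 3′ UTR of 531 bases, where 8.70% of genes of like length had one. That in Chek1, a kinase of the DNA damage checkpoint, lies at chr9:36710291-36710297 on the minus strand, against 27.0% of genes of like length. Bcl2l2, which encodes the Bcl2 relative Bcl-w, had 4 matches, 2 of them overlapping, and 1.18% of genes of like length had as many. Ccnd1, Ccnd2, Ccnd3 and Vegfa had 1 match each, Cdc25a and Wee1 had 2, and Cdk6 had 3, 2 of them overlapping. A match is a stretch of letters, and neither binding nor the level of any of these messenger RNAs was measured.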

How the data were processed

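Small RNA of 18 to 30 nt from sEV was sequenced in 3 Cis-sEV and 3 Ctrl-sEV samples. The authors selected it by PAGE, sequenced it on the DNBSEQ platform, aligned it to GRCm38.p6 with Bowtie2, annotated it (AASRA, cmsearch; miRBase taking precedence over other classes) and deposited whole-number read counts per mature miRNA, with no normalization. The authors' group means, an averaged signal in the same table, were not used, and 0 columns of other samples were present.

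edgeR 4.0.16 (R 4.3.3) used TMM factors (1.10 to 1.18 in Cis-sEV, 0.762 to 0.997 in Ctrl-sEV), filterByExpr (10 reads in a library, 15 over all) and Benjamini-Hochberg adjustment. Alternatives were DESeq2 1.42.0, limma 3.58.1 (voom, also with weights per group), an MA-plot test on summed counts, 4 other scalings, 2 other filters, no limit on the fold change, replicate numbers as a block, other added counts in ratios, and each library left out. Leaving out libraries with the same 353 miRNAs tested, and adjusting p over the 4 ratios that can be formed, were chosen after seeing the data. Ratios, profiles, UTR matches and figures used Python 3.11.15, matplotlib 3.10.9, scipy 1.17.1, pandas 2.3.3 and numpy 2.4.6. The edgeR, DESeq2 and limma fits were tested on simulated data. The simulated spread was the same in both groups, unlike that of these libraries, so this is no check of the calls reported here. Where a group had 0 reads, folds are lower bounds with 3 reads over the group, which cover counting error only. With 1 to 3 reads the ratio has a 95% Clopper-Pearson interval. Libraries of a group differed by more than read sampling (chi-square per degree of freedom 51.2 to 91.5).

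miRNAs were named by a rule: the members, their passenger arms, the seed relatives, the listed markers and Bcl2-linked miRNAs set beside a member, and the 5 nearest profiles to the most abundant member. The members and lists were chosen with earlier results of these data known. The study had reported miR-15b-5p as upregulated in Cis-sEV by sequencing and by RT-qPCR, and the RT-qPCR was not examined here.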

Additional observations from a re-analysis of the deposited data

How the results depend on the processing

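The number of members called (2) was 4 with the MA-plot test, which ignores the spread between replicates and also called miR-15a-5p, and 1 to 3 with 1 library left out. It was 1 without any of the Cis-sEV libraries, because miR-497a-5p then failed the filter, and 2 to 3 with the same miRNAs tested. All miRNAs called (106) were 43 with limma-voom, 215 with the MA-plot test and 53 to 169 with 1 library left out, the lowest without the first Cis-sEV and the highest without the third Ctrl-sEV library. Called Bcl2-linked miRNAs (6) were 2 with DESeq2. The log2 difference of miR-15a-5p over miR-16-5p reversed to -0.0529 without the second Ctrl-sEV library and reached 3.48 without the first. Except for the construction named, the cause was not tested. Of 96 counts of calls under alternatives, 83 were within 1.5 times the count reported. These 83 include 18 counts of passenger arms, which were not in the main fit, and 18 of miR-322-5p, all of them 0. The 83 is therefore no measure of stability. The count of all miRNAs called stayed within 1.5 times in 11 alternatives and left that range in 7. Of 112 log2 fold changes of members, 102 kept their direction and their side of the threshold, 7 were newly called and 3 no longer called. The other 4 scalings, 2 filters and the fit with no limit on the fold change called 2 members each.

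Same-numbered libraries did not deviate together (correlations -0.04, -0.17 and -0.01), and correlations between libraries of unlike number ran from -0.12 to 0.16. The labels do not state whether equal numbers mark a shared litter or culture batch. So few correlations, with Ctrl-sEV libraries that spread widely, cannot decide this. The libraries were treated as unpaired except in the fit with the replicate block and the paired permutation. With the replicate block, edgeR called 0 members (1 at an unadjusted p under 0.05; adjusted p = 0.161 for miR-195a-5p and miR-497a-5p) and 24 miRNAs in all, and the paired permutation of ratios cannot go below p = 0.25.

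Depth limits the Ctrl-sEV values: 3 reads are 4.20 to 7.31 CPM there, near the Cis-sEV level of miR-497a-5p, and miR-15b-5p rests on 19 Ctrl-sEV reads.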
